A study of Homo sapiens with 6 samples.

Results

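The retinoblastoma pocket proteins and the E2F transcription factors are described here as 10 genes out of the 62438 in the count table, RB1, RBL1 and RBL2 for the pocket proteins and E2F1, E2F2, E2F3, E2F4, E2F5, E2F7 and E2F8 for the E2F factors. They were chosen by name, through gene symbols matched to the Ensembl identifiers of the table. The starting point was RB1, one of the cell cycle inhibitors that the study reported as decreased after the knockdown. That report rested in part on these same RNA data, so a lower RB1 here adds no independent support. All 10 passed the filter on low counts. RNA was sequenced from 6 samples of cells that carry the label MDA-MB-453, a breast cancer line of human origin, of which 3 had received siRNA against N6AMT1 (si-N6AMT1) and 3 a scrambled siRNA (si-CN). Both groups were transfected at 10 nM with Lipofectamine RNAiMAX and were harvested after 48 h, and the labels give no other allele or agent for either group. The knockdown was transient, the labels do not give the siRNA sequence, and they call the samples triplicates without saying whether the cultures were grown separately, so the p-values measure the spread between these samples, which may be technical.

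Pocket proteins bind E2F factors at the promoters of genes needed for DNA synthesis and mitosis and hold those genes silent in resting cells. Cyclin-dependent kinases phosphorylate the pocket proteins as a cell enters S phase, which frees the E2F factors. RB1 mainly restrains the activators E2F1, E2F2 and E2F3, whereas RBL1 (p107) and RBL2 (p130) work with the repressors E2F4 and E2F5, in the DREAM complex among others. E2F7 and E2F8 are atypical repressors that bind DNA without a pocket protein, and both are themselves switched on by E2F. RB1 is known as a tumour suppressor that is lost in part of breast cancers.

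Because several of these genes are themselves E2F targets, their promoters were searched on both strands for the E2F core, spelled TTGGCGC as in many known sites, or in close variants that read TTGCCGC, or else TTCCCGC, or lastly TTCGCGC. RefSeq promoters (GRCh38.p14, 250 bases before the start and 50 after it) were found for 8 of the 10 members, with E2F5 and E2F8 not matched. The entry for RB1 starts 172699 bases inside the gene, so it was not read as the promoter of the full-length transcript. At least 1 match was found in 5 members (RBL1, E2F1, E2F2, E2F3 and E2F7), and none in RBL2 or E2F4. Of all 35116 RefSeq promoters, 13.0% held a match and 1.77% held at least 2, which RBL1, E2F1, E2F3 and E2F7 did. A second promoter entry of E2F3, 1735 bases further into the gene, held none. The stretches that carry the matches are printed below with the matches in capitals, read 5′ to 3′ on the strand of the gene. Those of RBL1, E2F1, E2F2 and E2F3 run from 60 bases before the start to 10 after it, and that of E2F7 from 185 to 116 bases before it.
RBL1, chr20:37095988-37096057, minus strand: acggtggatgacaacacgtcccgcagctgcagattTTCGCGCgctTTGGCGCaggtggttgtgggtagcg
E2F1, chr20:33686376-33686445, minus strand: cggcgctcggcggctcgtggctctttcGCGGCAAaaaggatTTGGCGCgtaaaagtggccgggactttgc
E2F2, chr1:23531224-23531293, minus strand: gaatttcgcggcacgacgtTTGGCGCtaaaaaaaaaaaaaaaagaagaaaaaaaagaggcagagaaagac
E2F3, chr6:20401819-20401888, plus strand: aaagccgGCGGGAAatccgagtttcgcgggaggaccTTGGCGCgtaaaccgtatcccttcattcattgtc
E2F7, chr12:77065685-77065754, minus strand: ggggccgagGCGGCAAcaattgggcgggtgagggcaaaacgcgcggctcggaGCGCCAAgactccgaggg

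In these lines TTGGCGC stood in the promoters of RBL1, E2F1, E2F2 and E2F3, and in that of E2F7 it was read on the other strand as GCGCCAA. In RBL1 the matches began 25 and 15 bases before the start, and in E2F1 33 and 19 bases before it. The CHR letters TTTGAA, which mark many G2/M promoters of DREAM targets, were found once in an RBL2 promoter and once in the first E2F3 promoter, against 15.2% of all promoters. A match is a run of letters and was not tested for binding.

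The libraries held between 19739247 and 21289740 counts. N6AMT1, the methyltransferase targeted by the siRNA, was at 3.17 ± 0.312 CPM in si-N6AMT1 and 6.80 ± 0.145 CPM in si-CN (SD, n = 3 each), a change of −1.10 on the log2 scale (SE 0.119, FDR 3.648e-07). CPM are counts scaled to a common library size, with TMM factors, while FDR stands for the p of edgeR's quasi-likelihood test after Benjamini-Hochberg adjustment over the 17320 genes tested. Luminal and apocrine markers, for which the labelled line is known, bore out the label only in part. Several were at or near 0 while several basal and mesenchymal markers were high, and the identity of the cells was not tested. PIP had 0 counts in every library, TFAP2B 0 to 1, SPDEF 1 to 6 and KRT19 8 to 14, while KRT8 was at 748 TPM, KRT18 at 726, XBP1 at 98.2 and ERBB2 at 26.2 TPM in si-CN (TPM are counts per transcript length, scaled to a common sum). The basal and mesenchymal markers ran from SPARC at 0.340 TPM and ZEB1 at 6.69 TPM to VIM at 652, KRT5 at 764 and KRT17 at 4176 TPM in si-CN. The summed level of the 10 basal or mesenchymal markers was 6287 to 6358 CPM in si-N6AMT1 and 6107 to 6189 CPM in si-CN, with 5 markers higher and 1 lower by FDR. That of the 8 luminal markers that passed the filter, mostly KRT8 and KRT18, was 1268 to 1289 against 1186 to 1219 CPM, with 2 of them higher. Of the immune markers, PTPRC had 1 to 3 counts and CD3E 0 to 2 counts per library, and CD68, which many cell types express, was higher by 0.50 on the log2 scale (FDR 1.646e-12 by edgeR's quasi-likelihood test). The part of these shifts in the results was not tested.

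Among the 10 members, 4 were lower in si-N6AMT1 (RB1, RBL1, E2F2 and E2F8), 2 were higher (RBL2 and E2F3) and 4 were not called (E2F1, E2F4, E2F5 and E2F7). Of all genes tested, 11.5% were called lower and 9.78% higher. An alternative test, DESeq2, which the study used for its own calls, called neither RBL2 (FDR 0.1558) nor E2F3 (FDR 0.08835) higher here. RB1 was chosen because it had been reported as lowered in these data, so the number lower is partly set by that choice. The changes ran from a fall of 30.1% for E2F8 to a rise of 8.33% for E2F3, and the median log2 fold change of the members was −0.05, against 0.0039 for all genes tested. The 4 lower members had no si-N6AMT1 library as high as any si-CN library, a separation found in 18.0% of all genes, and the 2 higher members were separated the other way, as were 16.8% of all genes. In bulk RNA, fewer cells of a type or cycle phase and less RNA per cell cannot be told apart.

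**Figure D1:**
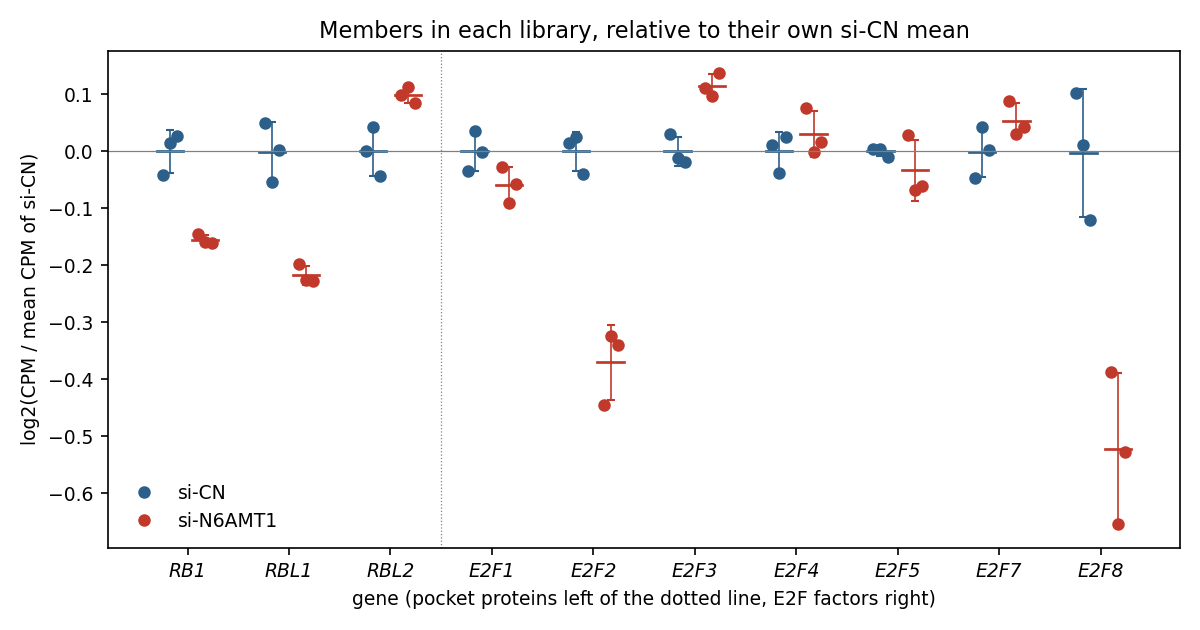
Level of each member in each library as log2 of its CPM over its own si-CN mean, with 3 si-CN (blue) and 3 si-N6AMT1 (red) libraries, and bars for the mean ± SD of these values. The si-N6AMT1 points of RB1, RBL1, E2F2 and E2F8 lie below all si-CN points, those of RBL2 and E2F3 lie above them, and the groups overlap for the other 4 genes.

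RB1, the pocket protein best known for restraining activator E2Fs, lies on chromosome 13 from 48877880 to 49173572 (GRCh37, plus strand) and has 27 exons. Its level was 99.3, 98.3 and 98.2 CPM in the si-N6AMT1 libraries and 107, 111 and 112 CPM in the si-CN libraries. Every knockdown library was below every control, and the knockdown libraries lay closer together than the controls. The mean was 98.6 ± 0.603 against 110 ± 2.80 CPM (SD, n = 3 each), a fall of 10.2% (log2 fold change −0.16, SE 0.0286, FDR 0.0003195 by edgeR's quasi-likelihood test). RB1 remained lower in all 15 alternative analyses, with log2 fold changes from −0.18 to −0.11 and FDR up to 0.02266. The smallest falls came with the correction for GC content, alone (−0.1073, FDR 0.009972) or with the replicate block (−0.1071, FDR 0.02266). RB1 has the lowest GC content of the 10 members, 37.1% in its reference transcript, so the size of its fall depends on this correction. These values rest on 1973 to 2379 counts per library.

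RBL1, a pocket protein whose own gene is induced by E2F as cells cycle, lies on chromosome 20 from 35624752 to 35724400 (GRCh37, minus strand). Its level was 42.9, 42.1 and 42.0 CPM in si-N6AMT1 and 50.9, 47.4 and 49.3 CPM in si-CN. The groups did not overlap, and the lowest control stood well above the highest knockdown library. The mean fell by 14.0%, from 49.2 ± 1.75 to 42.3 ± 0.481 CPM (log2 fold change −0.22, SE 0.0399, FDR 0.0003104). RBL1 was called lower in all 15 alternatives, with FDR up to 0.003833. It shares 213 exonic bases with an antisense noncoding gene.

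RBL2, the pocket protein that prevails in resting cells and forms DREAM with E2F4, lies on chromosome 16 from 53467889 to 53525560 (GRCh37, plus strand) and moved the other way. Its level was 75.8, 76.5 and 75.0 CPM in si-N6AMT1 and 70.7, 72.9 and 68.6 CPM in si-CN. All knockdown libraries were above all controls, though the gap between the groups was about 1 SD of the controls. The mean rose by 7.16%, from 70.7 ± 2.14 to 75.7 ± 0.751 CPM (log2 fold change 0.10, SE 0.0329, FDR 0.03344). This call was weak. It was lost without si-N6AMT1 replicate 1 (FDR 0.06251), replicate 2 (0.1072) or replicate 3 (0.05707), without si-CN replicate 1 (0.06884) or replicate 3 (0.1697), in DESeq2 (0.1558) and without a filter on low counts (0.06215), and over all 15 alternatives FDR ran from 0.00586 to 0.1697. The direction was the same in all of them. RBL2 shares 609 exonic bases with the antisense gene AKTIP and 721 with another antisense gene, which was not among the genes tested. The strand option used in counting is not given in the sources used here. AKTIP was at 14.3 ± 1.19 against 14.4 ± 1.22 CPM (log2 fold change −0.01, FDR 0.9312).

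The balance among the pocket proteins was compared within each library, where gene length cancels out of a difference between groups. The log2 ratio of RB1 to RBL2 CPM was 0.39, 0.36 and 0.39 in si-N6AMT1 and 0.59, 0.60 and 0.71 in si-CN. The difference was −0.25, and all knockdown libraries were below all controls (two-sided exact permutation test, p = 0.1, the lowest p this design can give, adjusted p = 0.2 over the 2 ratios). The log2 ratio of RB1 to RBL1 was 1.21, 1.22 and 1.22 in si-N6AMT1 and 1.06, 1.22 and 1.18 in si-CN, a difference of 0.06 that was within the spread of the controls (exact permutation p = 0.4, adjusted p = 0.4). It was 0.0161 without si-CN replicate 1 and 0.0954 without si-CN replicate 2. Neither test could reach 0.05 with these group sizes. In TPM, RB1 made up 47.3% of the summed pocket protein mRNA in si-N6AMT1 (47.1% to 47.4%) and 49.8% in si-CN (48.7% to 50.7%). RBL1 made up 17.0% against 18.7%, and RBL2 35.7% (35.5% to 36.0%) against 31.5% (30.5% to 32.2%). Unlike the differences in ratio, these shares depend on the length taken for each gene, here the reference transcript. With the union of all exons, RBL1 and RBL2 stood close together in si-CN, at 32.2 and 34.0 TPM, with RB1 at 66.5 TPM.

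Among the activator E2Fs, E2F2 was called lower, E2F3 higher, and E2F1 was not called, and differences between these genes were not tested. E2F2, which drives S phase entry, is on chromosome 1 from 23832930 to 23857725 (GRCh37, minus strand). Its level was 15.6, 16.9 and 16.7 CPM in si-N6AMT1 and 21.4, 21.5 and 20.6 CPM in si-CN, with both groups tight and far apart. The mean fell by 22.5%, from 21.2 ± 0.502 to 16.4 ± 0.737 CPM (log2 fold change −0.37, SE 0.0617, FDR 0.0001174), and it was called lower in all 15 alternatives with FDR up to 0.001155.

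E2F3, an activator with more than one promoter, is on chromosome 6 from 20402110 to 20493945 (GRCh37, plus strand) and was higher. Its level was 72.7, 71.9 and 74.0 CPM in si-N6AMT1 and 68.7, 66.7 and 66.4 CPM in si-CN, so that the groups did not overlap. The mean rose by 8.33%, from 67.3 ± 1.21 to 72.9 ± 1.02 CPM (log2 fold change 0.12, SE 0.0325, FDR 0.01264). The call was lost in DESeq2 (FDR 0.08835), without si-N6AMT1 replicate 3 (0.05933) and without si-CN replicate 3 (0.05791), and FDR ran from 0.005076 to 0.08835 over the 15 alternatives. The counts are summed over transcripts, so the E2F3 promoters could not be separated.

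E2F1, the activator that is also a well-known inducer of apoptosis genes, was at 72.9, 69.8 and 71.4 CPM in si-N6AMT1 and 72.5, 76.1 and 74.2 CPM in si-CN. The groups overlapped, since si-N6AMT1 replicate 1 lay just above si-CN replicate 1. The log2 fold change was −0.06 (SE 0.0331, FDR 0.2388), and a correction for GC content turned it into a call (log2 fold change −0.10, FDR 0.02376), as it did with the replicate block added (FDR 0.04573). Over the 15 alternatives FDR of E2F1 ran from 0.02376 to 0.5256. E2F1 has the highest GC content of the 10 members, 61.6% in its reference transcript.

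The pocket-dependent repressors showed no call. E2F4, the E2F that recruits RBL1 and RBL2 to promoters, was at 96.5, 91.4 and 92.6 CPM in si-N6AMT1 and 92.3, 89.1 and 93.2 CPM in si-CN (log2 fold change 0.03, SE 0.0310, FDR 0.5567). E2F5, its close relative, was at 35.5, 33.2 and 33.4 CPM in si-N6AMT1 and 35.0, 35.0 and 34.6 CPM in si-CN (log2 fold change −0.03, SE 0.0444, FDR 0.6645). Groups overlapped for both genes, and neither was called in any of the 15 alternatives. E2F5 shares 471 bases of its reference transcript with the antisense gene RBIS, which was at 72.5 ± 3.27 against 78.2 ± 4.13 CPM (log2 fold change −0.11, FDR 0.0542).

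The atypical repressors E2F7 and E2F8 act in overlapping ways on S phase genes. E2F8, on chromosome 11 from 19245610 to 19263167 (GRCh37, minus strand), showed the largest fall among the 10 members. Its level was 11.6, 9.63 and 10.5 CPM in si-N6AMT1 and 16.3, 15.3 and 13.9 CPM in si-CN. The groups were separate in spite of the widest relative spread among the members. The mean fell by 30.1%, from 15.1 ± 1.17 to 10.6 ± 0.977 CPM (log2 fold change −0.52, SE 0.0828, FDR 6.645e-05), on 197 to 320 counts per library. E2F8 stayed lower in all 15 alternatives, with log2 fold changes from −0.59 to −0.45 and FDR up to 0.0008498.

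E2F7, on chromosome 12 from 77415028 to 77459349 (GRCh37, minus strand), was at 131, 125 and 127 CPM in si-N6AMT1 and 119, 127 and 123 CPM in si-CN. The highest control lay among the knockdown libraries. The log2 fold change was 0.05 (SE 0.0286, FDR 0.2065), and no alternative called it, with FDR from 0.05039 to 0.5584. The difference in fold change between E2F7 and E2F8 was not tested.

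**Figure D2:**
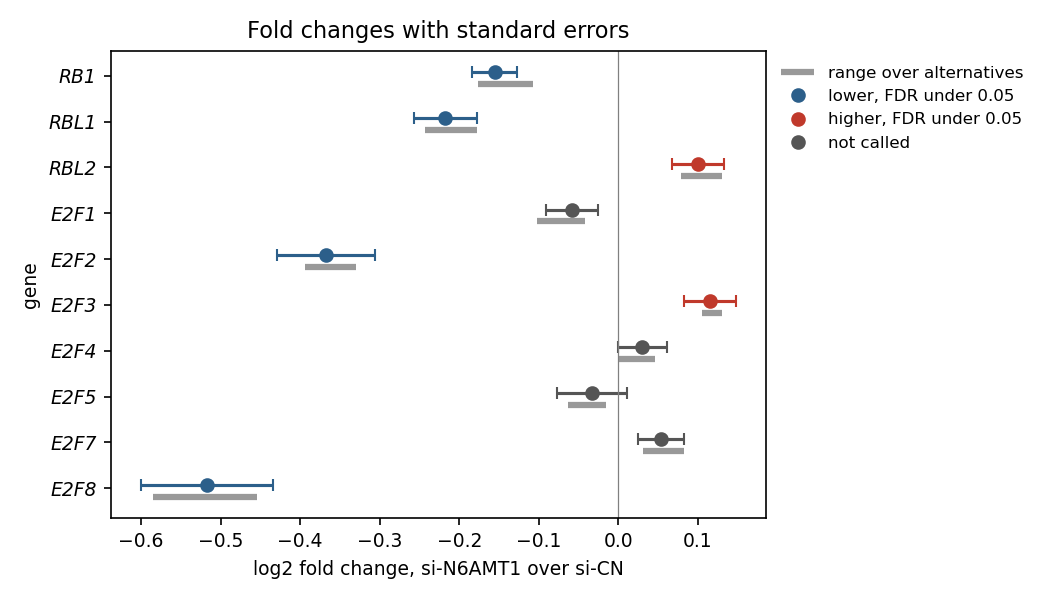
Log2 fold change of si-N6AMT1 over si-CN for each member (points, with bars of 1 SE) and the range of the same value over 15 alternative analyses (grey bars). E2F8 at −0.52 and E2F2 at −0.37 lie farthest below 0, RBL2 at 0.10 and E2F3 at 0.12 lie above it, and no grey bar crosses 0.

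Levels of different members were compared only per transcript length. In si-CN cells E2F4 was the most abundant at 96.7 ± 2.27 TPM, then E2F1 at 61.6 ± 2.12, RB1 at 51.4 ± 1.91, E2F7 at 47.8 ± 1.98 and E2F5 at 39.6 ± 0.395 TPM (SD, n = 3). RBL2 followed at 32.5 ± 1.04 TPM, E2F3 at 29.8 ± 0.179, RBL1 at 19.3 ± 0.517, E2F8 at 9.11 ± 0.613 and E2F2 at 9.09 ± 0.196 TPM. The libraries of RB1 and E2F7 overlapped, as did those of E2F8 and E2F2, and the other neighbours in this order were separate. In si-N6AMT1 cells E2F8 was at 6.35 ± 0.647 TPM and E2F2 at 7.02 ± 0.251 TPM, so the members with the largest falls were those with the lowest levels. The order depends on the length taken for each gene. With the union of all exons in place of the reference transcript, E2F1 stood at 108 TPM, E2F4 at 99.2, E2F7 at 76.1, RB1 at 66.5, E2F3 at 50.5, RBL2 at 34.0, RBL1 at 32.2, E2F5 at 22.7, E2F2 at 15.1 and E2F8 at 14.3 TPM.

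**Figure D3:**
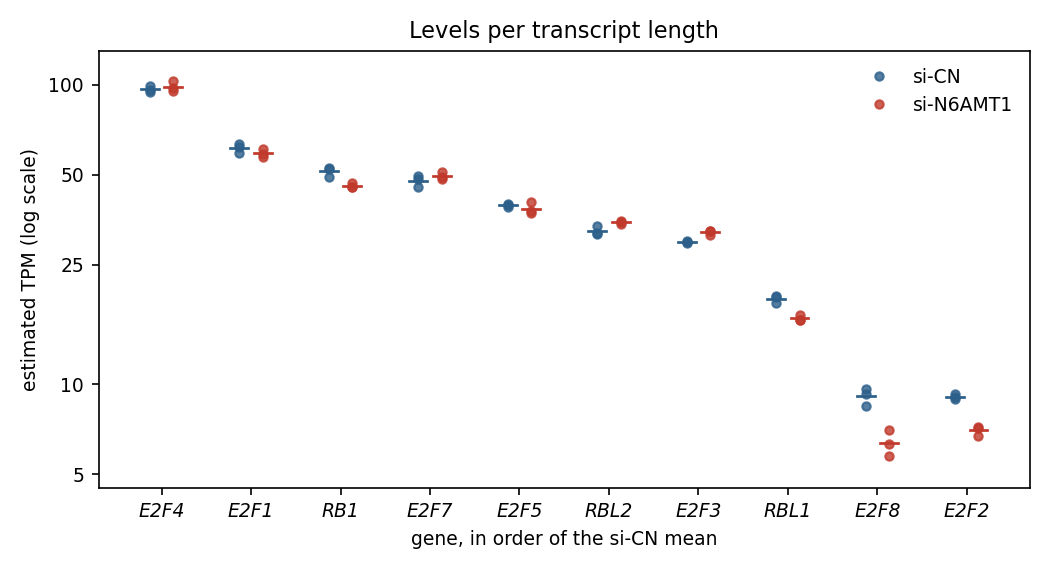
Estimated TPM of each member (log axis) in the 3 si-CN (blue) and 3 si-N6AMT1 (red) libraries, ordered by the si-CN mean, with bars for group means. E2F4 is highest at 96.7 TPM in si-CN, and E2F8 and E2F2 are lowest at 9.11 and 9.09 TPM and lower still in si-N6AMT1.

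Of the 5 members whose promoter held the E2F core letters, RBL1 and E2F2 were lower, E2F3 was higher, and E2F1 and E2F7 were not called. No promoter was read here for RB1 and E2F8, the other lower members, and a relation between matches and direction was not tested.

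The 3′ UTRs were searched for TTCACAT and for TCACATA, both 7-base sequences picked in an earlier analysis of these same fold changes for their association with lower mRNA, so a match adds no independent support. Matches were found in 2 of the 10 members, RB1 and RBL1, and in 22.2% of the 13297 tested protein-coding genes with an annotated 3′ UTR. None of the 10 members held the 8-base form that joins both sequences, which 4.65% of those genes held. The sites found are printed with the match in capitals (GRCh37, strand of the gene).
RB1, chr13:49055819-49055847, plus strand: ttgctactaagTTCACATtagaattagtg
RBL1, chr20:35625923-35625951, minus strand: ccttttaaaaaTCACATAaatatcatctc

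The other lower members, E2F2 with a 3′ UTR of 3442 bases and E2F8 with one of 595 bases, held neither sequence. The UTRs of RB1 and RBL1 are 1819 and 2410 bases long, against a median of 1323 bases over the tested genes. Those of E2F3 and E2F7, at 3284 and 2764 bases, also held neither sequence. A relation between UTR length and matches was not tested.

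Counts in this list and in those below are read beside the 11.5% of all genes tested called lower and the 9.78% called higher. The dimerisation partners of E2F were not called. TFDP1, the main DP partner, was at 229 ± 4.51 against 228 ± 1.90 CPM (log2 fold change 0.0038, FDR 0.9366), and TFDP2 was at 77.8 ± 2.52 against 79.3 ± 3.24 CPM (FDR 0.635). E2F6, a repressor that needs no pocket protein, fell from 23.5 ± 1.83 to 19.96 ± 1.23 CPM (log2 fold change −0.23, SE 0.0649, FDR 0.01141). With E2F6, 1 of the 3 genes tested was lower and 0 were higher, at an unadjusted p under 0.05 as well, and the E2F6 call was lost in DESeq2, without si-N6AMT1 replicate 2 and without si-CN replicate 2, each of which left 0 calls. TFDP3 did not pass the filter.

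Of the 9 cyclins and kinases that phosphorylate pocket proteins, 4 were lower (CCND1, CCND2, CDK4 and CDK2), 5 were not called and 0 were higher. At an unadjusted p under 0.05, 5 were lower and 0 higher. CCND1, the cyclin D1 gene, fell from 193 ± 3.22 to 130 ± 1.56 CPM (log2 fold change −0.57, SE 0.0252, FDR 1.913e-13). CCND2 fell from 84.0 ± 1.27 to 68.1 ± 1.49 CPM (log2 fold change −0.30, FDR 2.424e-07). CDK4, the kinase partner of D cyclins, fell from 125 ± 2.30 to 116 ± 1.18 CPM (log2 fold change −0.10, FDR 0.006398). Without si-CN replicate 3, 2 of the 4 calls were left. With a correction for GC content 1 gene of this list was called higher, with or without the replicate block.

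DREAM is built from RBL1 or RBL2, E2F4 or E2F5 and the MuvB core, which in cycling cells binds MYB proteins and FOXM1 in their place. Of 9 such genes tested, 3 were lower, all of them in the MYB and FOXM1 arm, and 6 were not called. MYBL1 fell from 65.5 ± 2.56 to 48.1 ± 1.51 CPM (log2 fold change −0.45, SE 0.0389, FDR 1.353e-08). MYBL2, an E2F target itself, fell from 269 ± 2.41 to 231 ± 3.08 CPM (log2 fold change −0.22, FDR 1.928e-07), and FOXM1 fell from 198 ± 3.04 to 175 ± 1.72 CPM (log2 fold change −0.18, FDR 4.824e-06). The MuvB genes LIN9, LIN37, LIN52, LIN54 and RBBP4, and the kinase gene DYRK1A, were not called. LIN9 was at 21.5 ± 0.622 against 19.2 ± 1.34 CPM (log2 fold change 0.16, FDR 0.07064) and was the 1 gene of the list higher at an unadjusted p under 0.05, while 0 were higher by FDR. By FDR 1 gene was called higher with the GC correction, with or without the replicate block, and without si-CN replicate 3.

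Among 18 genes for corepressors that pocket proteins bind, 5 were lower, 1 was higher (RBBP8) and 12 were not called, with a median log2 fold change of −0.0019. DNMT1, the maintenance DNA methyltransferase, fell from 207 ± 1.83 to 190 ± 5.44 CPM (log2 fold change −0.12, FDR 0.001156). SAP30 fell from 16.7 ± 0.636 to 14.3 ± 0.950 CPM (FDR 0.01959) and HDAC1, a histone deacetylase, from 164 ± 1.14 to 155 ± 3.16 CPM (FDR 0.02057). The count of lower genes was 1 in DESeq2, 3 with the replicate block and the GC correction, 3 without si-N6AMT1 replicate 1 or si-CN replicate 2, 2 without si-N6AMT1 replicate 3 and 1 without si-CN replicate 3. The count of higher genes was 0 in DESeq2 and without si-N6AMT1 replicate 2 or 3 or si-CN replicate 1 or 3, and 2 with the GC correction.

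Target genes of E2F and DREAM were examined next. Of 38 G1/S genes under E2F control, 20 were lower, 1 (RFC4) was higher and 17 were not called, with a median log2 fold change of −0.13. The shares over all genes tested were 11.5% lower and 9.78% higher. CDC6, which loads the replicative helicase, fell from 136 ± 1.16 to 98.5 ± 0.854 CPM (log2 fold change −0.46, SE 0.0263, FDR 1.446e-11). UHRF1, the partner of DNMT1 at replicated DNA, fell from 74.9 ± 0.558 to 59.0 ± 1.42 CPM (log2 fold change −0.34, FDR 6.982e-08). MCM7, a helicase subunit, fell from 323 ± 5.21 to 284 ± 2.26 CPM (log2 fold change −0.19, FDR 1.352e-06). PCNA, CDC25A and CDC45 of the same list, chosen for mention after their values were seen, were not called (log2 fold changes 0.05, −0.03 and −0.04). Between 16 and 20 genes of the list were lower in the 15 alternatives, and 0 were higher in DESeq2 and without si-N6AMT1 replicate 2.

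Of 30 G2/M genes under DREAM control, 19 were lower, 0 were higher and 11 were not called, with a median log2 fold change of −0.10. The shares over all genes tested were 11.5% lower and 9.78% higher. At an unadjusted p under 0.05, 20 genes of the list were lower and 0 higher. NEK2, a centrosome kinase, fell from 66.5 ± 0.999 to 52.4 ± 1.44 CPM (log2 fold change −0.34, FDR 1.774e-07). CENPF fell from 152 ± 3.25 to 131 ± 4.65 CPM (log2 fold change −0.22, FDR 5.463e-06) and MKI67, the gene of the Ki-67 proliferation marker, from 242 ± 5.07 to 215 ± 3.64 CPM (log2 fold change −0.17, FDR 1.216e-05). A correction for GC content left 12 genes lower and 1 higher, and with the replicate block 11 lower and 1 higher.

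**Figure D4:**
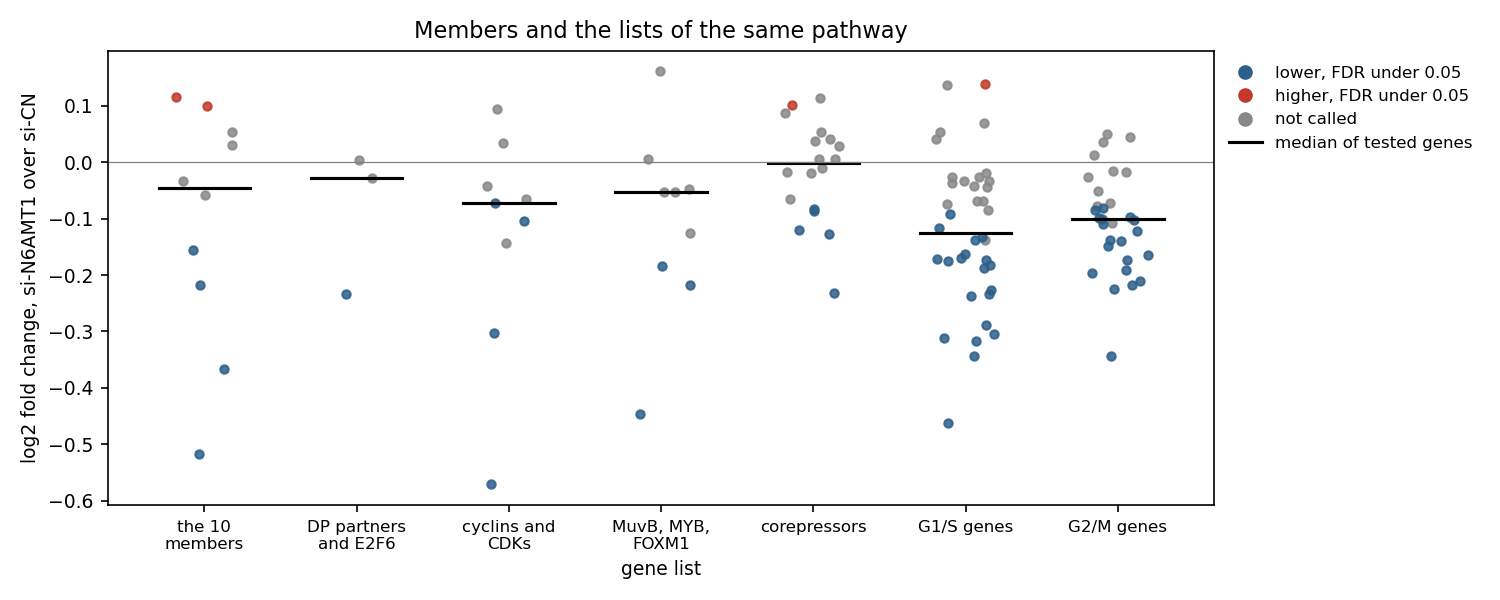
Log2 fold change of si-N6AMT1 over si-CN for the 10 members and for the tested genes of each list (1 point per gene, placed sideways at random), coloured by call at FDR under 0.05, with black bars for medians. The medians of the G1/S list at −0.13 and the G2/M list at −0.10 lie lowest, and that of the corepressors lies at −0.0019.

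The genes whose log2 CPM followed that of RB1 most closely over the 6 libraries were MAFK (Pearson r 0.999), BIRC6 (0.997), PJA2 (0.997), SNRNP200 (0.996) and PHKB (0.996), out of 9731 protein-coding genes with a mean of at least 10 CPM. These correlations describe 6 libraries in 2 groups and share library, depth and scaling, so they follow the difference between groups as much as the spread within them. All 5 were lower in si-N6AMT1, which their choice by likeness to RB1 largely set in advance. Their log2 fold changes were −0.17, −0.13, −0.25, −0.09 and −0.21 in the same order, and none of them is a member or stands in the lists above.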

How the data were processed

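Stranded mRNA libraries were analysed, 3 per group. The authors trimmed paired-end reads with Trim Galore, quantified transcripts with kallisto v0.46.0 (version per the submitters' processing notes) against a GENCODE annotation on hg19, and summed them per gene. The deposited values are estimated counts (expected counts) in whole numbers, without normalization, for 62438 genes, of which 62149 matched a symbol in GENCODE on GRCh37. Reads shared by similar transcripts are split by estimation, so counts of overlapping genes and paralogs are uncertain. All columns were matched to a sample by name.

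In R v4.3.3, edgeR v4.0.16 filtered the genes (minimum count 10), leaving 17320, and gave TMM factors. Its quasi-likelihood test used the 6 libraries together without covariates, with Benjamini-Hochberg adjustment over all genes tested and a threshold of 0.05. The standard error is the absolute log2 fold change over the root of the F statistic. Ratios used log2 CPM (prior count 2). For TPM, counts were divided by the length of the GENCODE reference transcript, because the count table has no length column. Counts were simulated for si-N6AMT1 against si-CN, with 196 of 17045 tested genes changed 1.2-fold. Of these, 44.4% were recovered, and 3.33% of calls were false. In the data 1993 genes were called lower and 1694 higher, and whether these shares hold with so many calls was not tested. Recovery of smaller changes, such as those of RB1, RBL2 and E2F3, was not tested either.

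Libraries of the same group differed beyond sampling noise (chi-square per degree of freedom 1.37 to 1.77) and were kept as separate samples. This does not show that the cultures were grown separately, since the counts are estimates. The common coefficient of variation that edgeR fitted between libraries of a group was small, 1.85%, and calls on small changes rest on it. Libraries with the same replicate number did not deviate together (correlations −0.04, −0.04 and 0.01), so the replicate block was an alternative only. Other alternatives were RLE size factors, DESeq2 v1.42.0, limma-voom (limma v3.58.1), no filter, at least 1 CPM in 3 libraries, mitochondrial genes left out, a GC correction with and without the block, and each library left out in turn. The members and lists were chosen with earlier results of these data known. The genes named were the members, N6AMT1, the 3 tested genes of smallest FDR in each list (DP partners and E2F6, cyclins and kinases, MuvB with MYB and FOXM1, corepressors, G1/S genes, G2/M genes) and the 5 most like RB1. Overlapping genes, markers and a few further list genes were named beside them. Sequences and motif shares were read with Python v3.11.15 from RefSeq promoters (GRCh38.p14) and GENCODE 3′ UTRs (GRCh37). The 6mA data were not analysed here. A few marker genes are not reported here.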

Additional observations from a re-analysis of the deposited data

How the results depend on the processing

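RB1, RBL1, E2F2 and E2F8 were lower in all 15 alternatives, and the number of members lower was 4 in most and 5 with the GC correction. No member reversed direction. The number higher was 0 in DESeq2 and 1 with no filter, and 0 to 2 when each library was left out. The log2 fold change of RBL2 was 0.10 in DESeq2 and 0.10 with no filter, neither past the threshold, and 0.0786 (without si-CN replicate 3) to 0.121 when each library was left out. That of E2F3 was 0.12 in DESeq2, also not past the threshold, and 0.105 to 0.13 in the leave-one-out fits. E2F1 was at −0.10 and became a call with the GC correction, alone or with the replicate block. With the replicate block alone the members' calls did not change (RBL2 0.10, FDR 0.04962, in a range of 0.00586 to 0.1697 over its alternatives). Over all genes, DESeq2 called 1257 lower and 946 higher, against 1993 and 1694. The cause of these differences was not tested. The labels give no pairing of same-numbered libraries beyond the number, and the low correlations of their deviations cannot exclude one. The smallest exact p for a ratio is 0.1. E2F8 and E2F2, with the fewest counts, carry the widest errors of the members.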
